A study of Mus musculus with 6 samples.

Results

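The IL-1 receptor gene cluster is a row of 6 neighbouring receptor genes on mouse chromosome 1, in the order Il1r2, Il1r1, Il1rl2, Il1rl1, Il18r1 and Il18rap, and its member Il1rl1 encodes ST2, through which interleukin-33 acts. The members were taken by name, and a peak belonged to a gene if it overlapped the gene's RefSeq span or 10 kb on either side. These windows run over 487 kb (chr1:40074692-40561707, GRCm38.p6, the assembly behind mm10) and hold 6 of the 16246 protein-coding genes with a peak and 40 of the 64817 regions obtained by merging the peaks of all libraries. Open chromatin was mapped with ATAC-seq, an assay that lets the Tn5 transposase cut and tag accessible DNA, in 6 libraries of regulatory T cells (Tregs). The KO group was 3 libraries (replicates 1, 2 and 4) from mice of genotype il33-/- on a C57BL6 background, which lack the gene of interleukin-33, and the WT group was 3 libraries (replicates 2, 4 and 6) from C57BL6 mice. Every mouse carried a B16.F10 melanoma, a transplantable mouse tumour line, 14 days after 300000 cells had been injected subcutaneously, and the Tregs came from the draining lymph nodes, where cells positive for CD4, CD25 and GITR were sorted. The age and sex of the mice, the part of Il33 that was deleted, and whether replicates were separate mice are not given in the sources used here, so p-values speak of the spread among these libraries alone, part or all of which may be technical.

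The signalling receptors of this family carry a TIR domain on their cytoplasmic side and signal through the adaptor MyD88 and IRAK kinases to NF-kB, each ligand-binding chain pairing with an accessory chain. In Tregs, ST2 marks cells of tissues and tumours that respond to interleukin-33, IL1R2 is a decoy that binds interleukin-1 without signalling, and the interleukin-18 receptor is found on effector-like cells. Il1rl1 is transcribed from a distal and a proximal promoter, which are used to different extents in different cell types. An ATAC-seq peak shows that DNA is accessible and does not measure transcription.

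After filtering, KO replicates 1, 2 and 4 kept 8.21, 4.72 and 10.3 M (mega) tags, against 13.1, 12.9 and 15.2 M in WT replicates 2, 4 and 6. No KO library reached the depth of a WT library, and in any count of peaks below the effects of depth and of genotype cannot be told apart. The peak lists held 42408, 37266 and 42738 peaks in KO and 53251, 55939 and 52836 in WT. In what follows, values are given in this order of replicates. All 6 Treg markers examined (Foxp3, Il2ra, Tnfrsf18, Ctla4, Ikzf2 and Cd4) had peaks in every library, 42 to 45 in sum per KO list and 55 to 61 per WT list. Of the other cell types, Ms4a1 of B cells, Csf1r, Adgre1 and Lyz2 of myeloid cells and Tyr and Dct of melanoma cells had 0 peaks in all 6 lists. The B cell markers as a whole had 5 to 7 peaks per KO list and 9 to 13 per WT list at 3 of 4 genes, the CD8 markers 2 in each KO list and 3 to 4 per WT list at 2 of 2 genes. Myeloid markers had 2 to 3 peaks per KO list and 2 in each WT list, all at Cd14, and melanoma markers 5 in each KO list and 5 to 6 per WT list, at Mlana and Pmel. The part of these other cell types in the results was not tested. Il33 itself had 1 peak in each of the 6 lists, which does not check the genotype.

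The promoter windows of RefSeq, 250 bases before to 50 after a start site, were given for all 6 members, 10 windows in all, and they show where the cluster was open. Open in all 6 lists were the windows of Il1r2, Il1rl2 and the 3 starts of Il18r1. The Il18rap window had a peak in all 3 WT lists and in 2 KO lists, and was missed in KO replicate 1. Neither Il1rl1 window had a peak in any list, and of the 2 Il1r1 windows 1 had no peak and the other a peak in WT replicate 6 alone. The Il1rl1 windows belong to starts at chr1:40429570 and chr1:40439629. Neither covers the first base of the Il1rl1 span, chr1:40404864, so they do not describe that end of the gene. Over all genes 33.8% of 32851 such windows had a peak in all 6 lists. Shown here are the window of the open Il1r2 promoter, both windows of Il1rl1, which had no peak, that of Il18r1 around the start nearest to its summits, and that of Il18rap, which 1 KO list missed. All lie on the plus strand of GRCm38.p6, and capitals mark matches to motifs given below.
Il1r2 (chr1:40085843-40086142): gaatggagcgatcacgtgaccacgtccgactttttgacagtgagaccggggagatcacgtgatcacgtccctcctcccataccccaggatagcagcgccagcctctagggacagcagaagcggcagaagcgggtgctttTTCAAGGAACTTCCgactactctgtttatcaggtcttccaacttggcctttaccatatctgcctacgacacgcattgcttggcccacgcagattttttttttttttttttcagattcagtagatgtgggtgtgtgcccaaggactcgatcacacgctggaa
Il1rl1, upstream start (chr1:40429320-40429619): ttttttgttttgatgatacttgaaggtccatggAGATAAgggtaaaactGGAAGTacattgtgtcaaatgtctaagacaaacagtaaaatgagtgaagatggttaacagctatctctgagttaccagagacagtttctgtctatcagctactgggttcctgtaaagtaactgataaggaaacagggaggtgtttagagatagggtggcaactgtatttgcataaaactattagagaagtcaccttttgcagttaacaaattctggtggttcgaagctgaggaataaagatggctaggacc
Il1rl1, downstream start (chr1:40439379-40439678): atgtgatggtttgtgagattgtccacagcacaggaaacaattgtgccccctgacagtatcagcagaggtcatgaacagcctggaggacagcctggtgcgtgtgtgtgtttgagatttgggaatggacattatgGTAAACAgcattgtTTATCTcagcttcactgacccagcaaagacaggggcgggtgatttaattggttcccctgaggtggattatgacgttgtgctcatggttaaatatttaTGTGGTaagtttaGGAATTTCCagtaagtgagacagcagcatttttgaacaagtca
Il18r1 (chr1:40465371-40465670): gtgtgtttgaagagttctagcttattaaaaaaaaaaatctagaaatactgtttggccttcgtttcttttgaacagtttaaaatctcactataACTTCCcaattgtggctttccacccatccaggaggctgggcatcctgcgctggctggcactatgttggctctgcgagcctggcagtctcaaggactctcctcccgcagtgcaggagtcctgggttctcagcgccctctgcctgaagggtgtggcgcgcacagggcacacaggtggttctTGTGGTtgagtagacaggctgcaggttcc
Il18rap (chr1:40515112-40515411): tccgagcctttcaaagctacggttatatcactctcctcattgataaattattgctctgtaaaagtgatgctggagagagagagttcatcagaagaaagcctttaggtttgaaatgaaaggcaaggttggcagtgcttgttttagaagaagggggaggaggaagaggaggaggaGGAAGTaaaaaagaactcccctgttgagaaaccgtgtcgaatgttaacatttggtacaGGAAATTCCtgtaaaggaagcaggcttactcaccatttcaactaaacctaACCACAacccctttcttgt

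The motifs were searched on both strands and each is a match of letters only, not a shown binding site. They were AGATAA for GATA factors (in 11.2% of all promoter windows), TGANTCA for AP-1 (7.81%), ACTTCC for ETS factors (23.8%), TGTGGT for RUNX (16.8%), TGTTTAC for forkhead factors (3.65%), GGAANTTCC for NF-kB (0.928%) and TTCNNNGAA for STAT factors (8.30%). The NF-kB word stood in the windows of 4 members. At Il1r2 it lay at positions -106 to -98 from the start site, where it overlaps a STAT word and an ETS word in a single stretch of capitals. In the downstream Il1rl1 window it lay at positions 7 to 15, beside a RUNX, a GATA and a forkhead word. At Il18rap it lay at -19 to -11, and at Il1rl2 at -116 to -108. The upstream Il1rl1 window held a GATA and an ETS word, and the Il18r1 window an ETS and a RUNX word. The TGANTCA word stood in none of the 10 windows.

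Summit positions at the promoters are counted in bases from the start site, negative before it. At Il1r2 the summits lay at -156, -158 and -189 in KO and -181, -176 and -157 in WT, within 33 bases of each other. The Il18r1 summits lay at 25, -39 and -1 from the start shown in KO, and at 2, -3 and -19 in WT. At Il18rap they lay at -35 and -29 in KO replicates 2 and 4, and at -43, -31 and -12 in WT. The nearest summits at Il1rl2 lay at 441, -19 and -3 in KO and 452, 463 and 412 in WT. KO replicate 2 also had a taller summit in this region, at chr1:40325011. It lay between those of WT replicate 6 (chr1:40325001) and KO replicate 1 (chr1:40325030). By the tallest summit of each library, KO replicate 4 alone stood apart, at chr1:40324586, and the range was 466 bases. Around the starts of Il1rl1 the nearest summits were farther off. The upstream start had its nearest summit at -2037, -4043 and -4133 in KO and at -455, -2171 and -2122 in WT. The downstream start had its nearest summit at 5339, -14102 and -14192 in KO, and at -2584, -2585 and -2437 in WT.

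**Figure D1:**
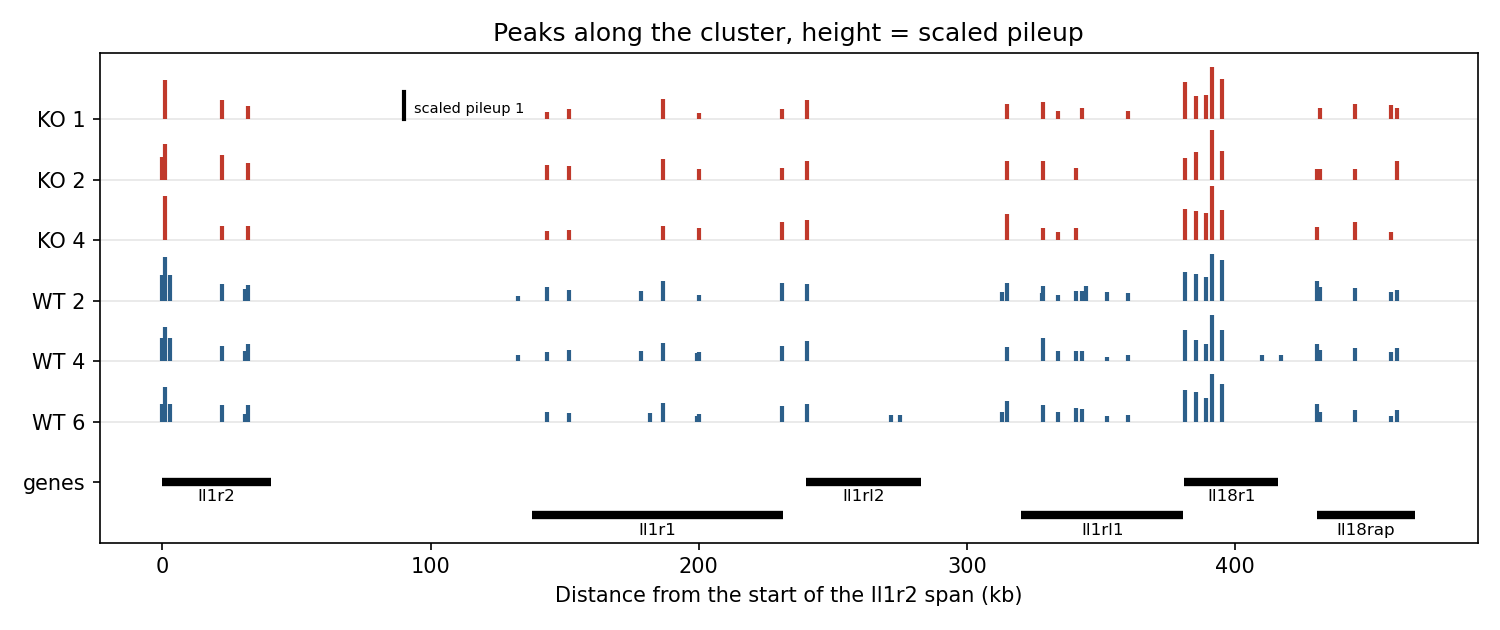
Peaks of the 6 lists along the cluster: the x axis is the distance in kb from the start of the Il1r2 span, each vertical line is a region with a peak in that library, and its height is the scaled pileup (peak height over the library's median height at regions shared by all lists; the bar marks a scaled pileup of 1). KO libraries are above WT libraries and black bars are gene spans. The tallest lines stand at the start of Il1r2 and in Il18r1 in every library, and the short lines in Il1rl1 are fewer in KO.

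Fewer peaks were called across the cluster in KO than in WT. The cluster held 23, 22 and 22 peaks in the KO lists and 35, 34 and 35 in the WT lists (22.3 ± 0.577 against 34.7 ± 0.577, SD, n = 3 each; two-sided exact permutation p = 0.1, the smallest that 3 against 3 libraries allow). Per 10000 peaks of a list these are 5.42, 5.90 and 5.15 in KO and 6.57, 6.08 and 6.62 in WT, which do not overlap (exact permutation p = 0.1). The share of genes separated on this scale was not computed. By single member, the lowest exact permutation p on it was 0.2, at Il1r2 and Il1rl1. When the lists were made equally long, each keeping the 37266 peaks with the lowest p-values, the groups overlapped, with 20, 22 and 18 peaks in KO and 23, 19 and 21 in WT (exact permutation p = 0.7). Of the neighbours outside the cluster, Map4k4, which encodes a kinase, had 20, 18 and 17 peaks in KO and 24, 21 and 19 in WT, and Slc9a4, which encodes a sodium-proton exchanger, had 0 peaks in each KO list and 0, 1 and 1 in WT.

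By gene, 4 of the 6 members, Il1r2, Il1r1, Il1rl1 and Il18rap, had fewer peaks in every KO list than in every WT list, where 15.5% of all protein-coding genes with a peak did, and no member had more, where 0.388% did. Each of the 4 has an exact permutation p of 0.1 and a Benjamini-Hochberg adjusted p of 0.629 over 16246 genes, so none passed the test. These members have many peaks: among all genes Il1rl1 stood at percentile 96.5 of peak number, Il1r1 at 94.3, Il1r2 and Il18r1 at 87.2, Il18rap at 81.0 and Il1rl2 at 51.8. The share among genes of like peak number was not computed. Of the 6 Treg markers, 3 (Foxp3, Ctla4 and Ikzf2) had fewer peaks in every KO list than in every WT list, and 0 had more. In lists of equal length none of the 6 members was separated in either direction, where 1.7% of genes had fewer and 1.84% more peaks in every KO list. Per 100 kb of window, Il1rl1 had 8.28 peaks in KO and 14.1 in WT, Il1r2 6.06 and 11.0, Il18r1 8.44 and 10.2, Il18rap 6.51 and 8.87, Il1r1 5.57 and 7.33, and Il1rl2 3.71 and 4.24 (means of KO, then WT). By window Il1rl1 was the densest member in WT, and Il18r1 and Il1rl1 were close to each other in KO. The Il1rl1 window takes in 3 regions in or at the start of Il18r1, and by span the order differs. In WT the Il1rl1 span held 8, 6 and 6 peaks over 60.6 kb, and the Il1r2 span 7, 6 and 7 over 40.5 kb. In KO the Il1rl1 span held 4, 2 and 3, and the Il18r1 span 5, 4 and 5 over 35.3 kb.

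**Figure D2:**
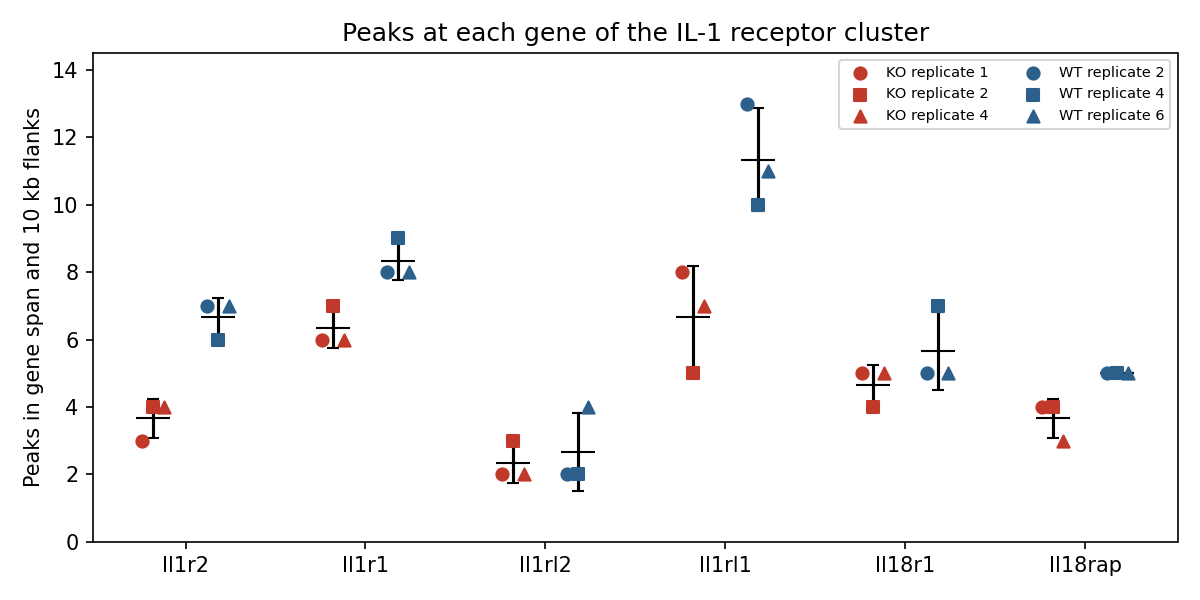
Number of peaks (y axis) in each gene's span and 10 kb flanks, with KO left of WT for each gene on the x axis; symbols are libraries, horizontal bars means and vertical bars SD (n = 3 each). KO and WT points do not overlap at Il1r2, Il1r1, Il1rl1 and Il18rap, and overlap at Il1rl2 and Il18r1.

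Il1rl1, the ST2 gene (chr1:40404864-40465418), had the highest mean number of peaks per window in the cluster, in KO as in WT, although KO replicate 2 had more at Il1r1. Its window held 8, 5 and 7 peaks in KO and 13, 10 and 11 in WT, and the gene span alone 4, 2 and 3 in KO and 8, 6 and 6 in WT. By span alone it did not stand out. The Il1r1 span held 5, 5 and 5 peaks in KO and 6, 7 and 7 in WT, and the Il1r2 span 3, 4 and 4 in KO and 7, 6 and 7 in WT. At Il1rl1 the groups do not overlap by window or by span, and the share of all genes separated by span alone was not computed. Of the 13 regions in the Il1rl1 window, 3 lie in or at the start of the neighbouring Il18r1 gene, with 133 bases between the spans. They carried 58.7%, 49.3% and 59.6% of the summed scaled pileup of the Il1rl1 window in KO and 43.2%, 46.7% and 46.9% in WT. Outside them the sum was 2.19, 1.85 and 2.17 in KO and 3.82, 2.89 and 3.49 in WT, a sum over called peaks that falls when weak peaks are missed. In equal-length lists the window held 7, 5 and 6 peaks in KO and 6, 5 and 8 in WT, and the groups overlapped.

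Of the 7 regions of Il1rl1 that lie outside the Il18r1 window and were called in all 3 WT lists, 2 were called in all 3 KO lists. The first lies 5.1 kb before the gene span (chr1:40399476-40400141), with scaled pileups of 0.556, 0.70 and 0.967 in KO and 0.644, 0.532 and 0.766 in WT. The second lies 8.4 kb into the span (chr1:40412869-40413597), with 0.630, 0.70 and 0.433 in KO and 0.556, 0.851 and 0.596 in WT. The groups overlap at both. The other 5 lie between 13.8 and 40.1 kb into the span and had WT means of 0.239 to 0.409. The region at chr1:40436927-40437311, upstream of the downstream start, was called in no KO list and had 0.333, 0.170 and 0.213 in WT. Of these values the first was above and the others were below the 5th percentile of scaled pileup in the KO lists (0.296, 0.30 and 0.30). That at chr1:40444714-40445130 was called in KO replicate 1 with 0.296, and had 0.267, 0.234 and 0.255 in WT. At chr1:40427291-40427632 the value was 0.407 in KO replicate 1, against 0.356, 0.362 and 0.468 in WT. At chr1:40425272-40425719 it was 0.45 and 0.467 in KO replicates 2 and 4, against 0.356, 0.383 and 0.489 in WT, and at chr1:40418495-40418873 0.296 and 0.30 in KO replicates 1 and 4, against 0.20, 0.362 and 0.340 in WT. Values exist only where a list called the region, which leaves out low KO heights.

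Il1r2, the interleukin-1 decoy receptor (chr1:40084692-40125230), was open at its promoter in both genotypes and had fewer flanking peaks in KO. Its window held 3, 4 and 4 peaks in KO and 7, 6 and 7 in WT. The promoter region (chr1:40085182-40086218), which also overlaps the predicted gene Gm16894, had scaled pileups of 1.44, 1.30 and 1.60 in KO and 1.60, 1.23 and 1.28 in WT, so that the groups overlap. On its downstream side, a region at chr1:40086960-40087763 was called in all 3 WT lists, with 0.956, 0.830 and 0.660, and in no KO list. On its upstream side, a region at chr1:40084486-40084902 had 0.850 in KO replicate 2, and 0.956, 0.830 and 0.660 in WT, the same heights as on the downstream side by the tag count of the summits. Few regions of this height were missed in all KO lists: of the 19043 regions called in all 3 WT lists with at least the same mean height, 0.777% were called in no KO list. The fold over the local background was low, at 3.59, 3.57 and 2.93 in WT for the downstream region, where the 5th percentile of fold was 3.65, 3.93 and 3.45 in the KO lists and 3.29, 3.28 and 3.30 in the WT lists. By p-value, on which the calls rest, the downstream region stood higher, at percentiles 40.8, 39.1 and 15.5 of the WT lists. Why the KO lists missed it was not tested.

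Inside Il1r2, a region 22.2 kb from the start of the span (chr1:40106440-40107278) had scaled pileups of 0.704, 0.90 and 0.533 in KO and 0.622, 0.553 and 0.596 in WT. A region at 31.8 kb (chr1:40116268-40116766) had 0.481, 0.60 and 0.533 in KO and 0.578, 0.617 and 0.596 in WT. Both overlapped between the genotypes. Between them, a region at chr1:40115308-40115634 was called in no KO list and had 0.422, 0.362 and 0.298 in WT. In equal-length lists Il1r2 had 3, 4 and 3 peaks in KO and 6, 5 and 3 in WT (3.33 ± 0.577 against 4.67 ± 1.53, SD, n = 3 each), which overlap.

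Il1r1, the signalling receptor of interleukin-1 (chr1:40222480-40316201), is the longest member, and every one of its 6 regions called in all 3 WT lists was also called in all 3 KO lists. Its window held 6, 7 and 6 peaks in KO and 8, 9 and 8 in WT. The WT peaks beyond the 6 shared regions lay in 4 regions with a peak in 1 or 2 WT lists alone. The 7 of KO replicate 2 all lay in the 6 shared regions, with 2 peaks in that at the Il1rl2 promoter. The highest of its own shared regions lies 48.7 kb into the span (chr1:40270788-40271624), with scaled pileups of 0.741, 0.750 and 0.533 in KO and 0.711, 0.660 and 0.681 in WT. The other shared regions inside the gene were lower, at 0.222 to 0.550 in KO and 0.222 to 0.489 in WT for those 5.6, 13.8 and 62.3 kb into the span. At the 3' end of the gene, a region 9.0 kb before Il1rl2 (chr1:40315212-40315919) had 0.370, 0.45 and 0.667 in KO and 0.644, 0.553 and 0.574 in WT. All of these overlap between the groups, and in equal-length lists Il1r1 had 4, 7 and 5 peaks in KO and 5, 4 and 5 in WT.

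Il1rl2, the interleukin-36 receptor (chr1:40324589-40367555), had the fewest peaks, 2, 3 and 2 in KO and 2, 2 and 4 in WT (exact permutation p = 1). Its promoter region (chr1:40324449-40325551) had scaled pileups of 0.704, 0.70 and 0.733 in KO and 0.60, 0.723 and 0.638 in WT, which overlap. The remaining regions inside it were called in WT replicate 6 alone, at 0.234 and 0.255.

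Il18r1, the ligand-binding chain of the interleukin-18 receptor (chr1:40465552-40500854), held the tallest region of the cluster, ahead of the Il1r2 promoter, and its peak numbers overlapped between the groups. Its window had 5, 4 and 5 peaks in KO and 5, 7 and 5 in WT (exact permutation p = 0.6). The tallest region lies 10.3 kb into the gene (chr1:40475616-40476184), with scaled pileups of 1.93, 1.80 and 1.97 in KO and 1.69, 1.68 and 1.74 in WT. On this scale it is the only shared region of the cluster at which every KO library was higher than every WT library. Divided by the median of each whole list, the same heights were 2.60, 2.25 and 2.57 in KO and 2.71, 2.93 and 2.83 in WT, lower in every KO library. The summits of this region lay within 15 bases of each other in the 6 lists. The promoter region (chr1:40465424-40466377) had 1.37, 0.80 and 1.13 in KO and 1.07, 1.15 and 1.17 in WT, and the KO values spread around those of WT. A region 14.1 kb into the gene (chr1:40479437-40479954) had 1.48, 1.05 and 1.10 in KO and 1.49, 1.15 and 1.38 in WT, again with overlap. The region at 4.6 kb (chr1:40469871-40470345) had 0.852, 1 and 1.07 in KO and 0.978, 0.766 and 1.06 in WT. That at 8.3 kb (chr1:40473694-40474029) was missed by KO replicate 2 and had 0.889 and 1 in KO replicates 1 and 4, above the 0.867, 0.617 and 0.851 of WT. The missing KO library has no value there, and the share of such separations over all regions was not computed.

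Il18rap, the accessory chain of the interleukin-18 receptor (chr1:40515362-40551707), had 4, 4 and 3 peaks in KO and 5, 5 and 5 in WT, and each of its 5 regions was called in all 3 WT lists. In KO, 1 of the 5, which lies 14.2 kb into the gene (chr1:40529108-40529921), was called in all 3 lists, with scaled pileups of 0.556, 0.40 and 0.667, against 0.467, 0.489 and 0.426 in WT. The other 4 were each missed by 1 KO list. As only called heights have values, these 4 are compared without the missing KO library, and the share of such separations over all regions was not computed. The promoter region (chr1:40514848-40515709) was missed by KO replicate 1 and had 0.40 and 0.50 in KO replicates 2 and 4, below all WT values of 0.711, 0.638 and 0.638. It was the strongest region of the cluster by fold to be missed in a KO list, with 8.51, 8.03 and 8.66 in WT. The next region, 1.1 kb into the gene (chr1:40516107-40516763), was missed by KO replicate 4 and had 0.407 and 0.40 in KO, within the range of 0.511, 0.404 and 0.362 in WT. A region 27.6 kb into the gene (chr1:40542738-40543249) was missed by KO replicate 2 and had 0.519 and 0.30 in KO replicates 1 and 4, against 0.311, 0.319 and 0.213 in WT. The last, at 29.5 kb (chr1:40544721-40545001), was missed by KO replicate 4 and had 0.407 and 0.70 in KO replicates 1 and 2, against 0.40, 0.489 and 0.426 in WT. Both overlap between the groups. In equal-length lists Il18rap had 4, 4 and 2 peaks in KO and 4, 3 and 3 in WT.

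Over the whole cluster, 29 regions were called in all 3 WT lists, of which 16 were called in 3 KO lists, 7 in 2, 3 in 1 and 3 in none. The 16 are 55.2%, where 67.6% of the 43512 such regions of the genome were called in all 3 KO lists, and the 3 are 10.3%, where 6.95% were called in no KO list. A further 11 regions were called in 1 or 2 WT lists and no KO list, 27.5% of the 40 regions of the cluster, where 20.9% of all 64817 regions were. Called in KO lists alone were 0 regions of the cluster, where 3.17% of all regions were. By gene, the share of regions in all WT lists that were in all KO lists was 6 of 6 at Il1r1, 2 of 2 at Il1rl2, 4 of 5 at Il18r1, 3 of 6 at Il1r2, 4 of 10 at Il1rl1 and 1 of 5 at Il18rap. The 13 regions missed by at least 1 KO list had WT mean scaled pileups of 0.239 to 0.815 (median 0.409), and the 16 shared regions WT means of 0.273 to 1.71 (median 0.651). All KO lists had gaps: KO replicates 1, 2 and 4 held 7, 5 and 5 of the 13.

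At the 16 shared regions, no difference in peak height between KO and WT was called by the test used, whose SE draws on all fitted regions. By limma on log2 scaled pileup, fitted to the 29419 regions called in all 6 lists, 0 of the 16 were called at an adjusted p under 0.05, where 2.42% of all regions were (617 higher and 95 lower in KO), and 0 had an unadjusted p under 0.05, where 16.5% of all regions did. The lowest adjusted p was 0.506. The differences (KO minus WT, log2) ran from -0.29 at the 3' end of Il1r1 to 0.32 at 62.3 kb into Il1r1, 9 above and 7 below 0, with a median of 0.07 against 0.03 over all regions. The 95% intervals of the 16 differences together reached from -0.76 to 0.85, so changes within them are not excluded at single regions. At the tallest region, in Il18r1, the difference was 0.15 (SE 0.109, interval -0.07 to 0.37, limma adjusted p = 0.506), and at the Il1r2 promoter it was 0.08 (SE 0.133, interval -0.18 to 0.35). Of the 16, 1 was higher in every KO library, where 13.7% of all regions were, and 0 were lower in every KO library, where 6.9% were. With heights divided instead by the median of each whole list, which holds more weak peaks in WT, all regions shifted by a median of -0.32 in KO, 34.7% of them were called, and 2 of the 16 were called lower in KO (chr1:40315212-40315919 and chr1:40479437-40479954, log2 differences of -0.64 and -0.50, of which -0.32 is the shift of all regions). On that scale 6 of the 16 were lower in every KO library, where 48.2% of all regions were, and 0 were higher, where 0.197% were.

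**Figure D3:**
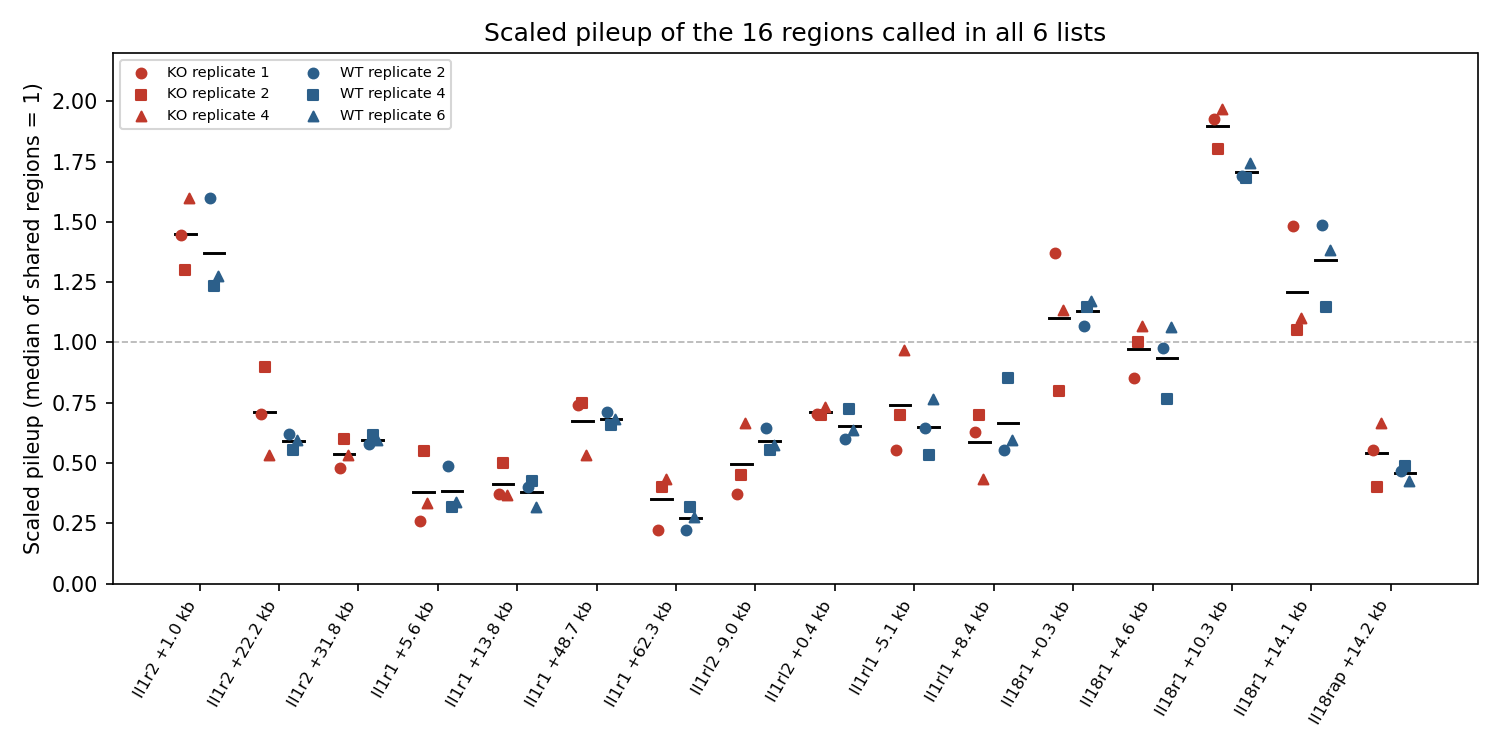
Scaled pileup (y axis, 1 is the median of shared regions in a library) of the 16 regions called in all 6 lists, in genome order on the x axis and named by gene and distance from the start of its span; KO points are left of WT points, symbols are libraries and horizontal bars are means. The groups overlap at every region but the one 10.3 kb into Il18r1, where KO lies at 1.80 to 1.97 and WT at 1.68 to 1.74 on this scale (on the list-median scale it was lower in every KO library).

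**Figure D4:**
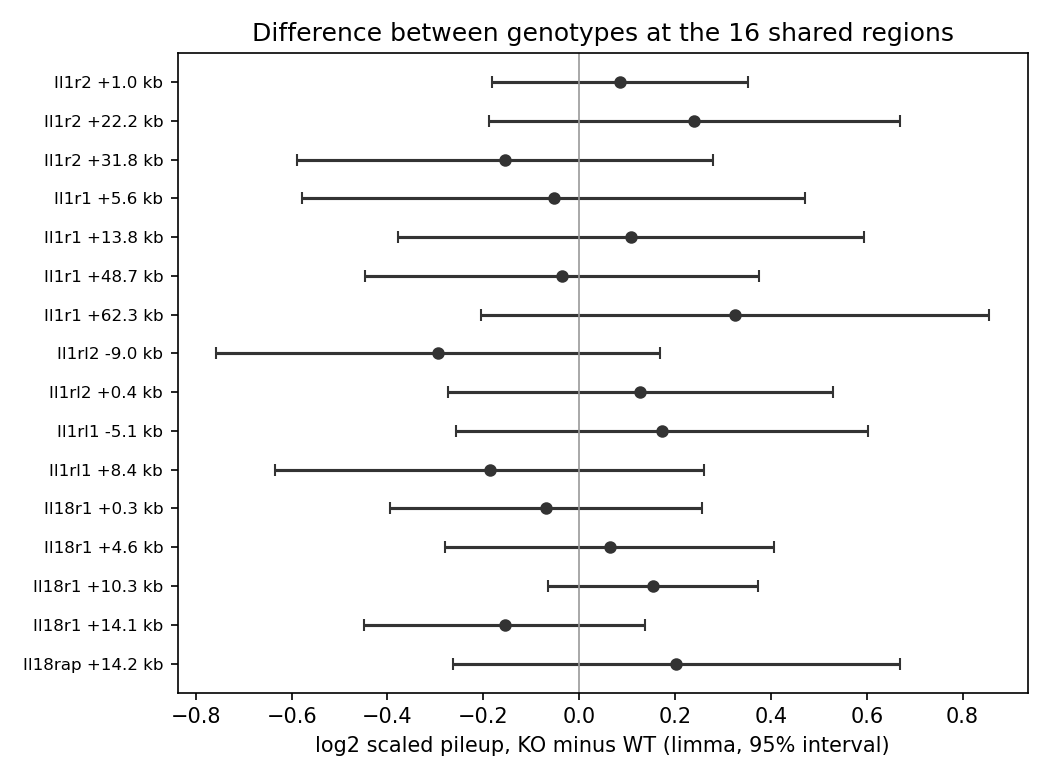
Difference of log2 scaled pileup between KO and WT (x axis) at the same 16 regions (y axis, named as before); points are limma estimates and bars 95% intervals, and positive values mean higher in KO. Every interval includes 0.

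Beyond the windows, accessible regions also lay between the genes. The 17.3 kb between the windows of Il1rl2 and Il1rl1 held 6 regions, of which 5 were called in all 3 WT lists and 1 in all 6 lists. The 77.2 kb between the windows of Il1r2 and Il1r1 held 1 region, called in all 3 WT lists and no KO list, and the 38.4 kb between those of Map4k4 and Il1r2 held 6, of which 2 were called in all 6 lists.

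Of 24 other genes of the interleukin-1 family and its signalling pathway, 18 had a peak. None had fewer peaks in every KO list than in every WT list, where 15.5% of all genes with a peak did, and none had more, where 0.388% did. The list had 48, 41 and 49 peaks in KO and 51, 51 and 54 in WT, the most at Irak2, a kinase of the pathway, with 9, 10 and 10 in KO and 9, 9 and 11 in WT. The genes with 0 peaks in all lists were Il36a, Il36b, Il36g and Il36rn, which encode interleukin-36 ligands and their antagonist, and Il1rapl1 and Il1rapl2. Of the 36 regions of the list shared by all lists, limma called 1, at Myd88, the adaptor of these receptors (chr9:119340696-119341754), higher in KO with a log2 difference of 0.36 (SE 0.0856, limma adjusted p = 0.0171), beside 2.42% of all regions. That call was kept under 5 of 15 other settings, with limma adjusted p-values of 0.0111 to 0.999.

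The genes most like Il1rl1 in summed scaled pileup over the 6 libraries, by the distance between centred log2 values among 14466 genes, were Gcc1 (distance 0.083), Lsamp (0.129) and A1cf (0.140), where the median gene had 0.788. Gcc1 had 4, 2.8 and 4.2 in KO and 4.96, 4.06 and 5.17 in WT, and Il1rl1 5.30, 3.65 and 5.37 in KO and 6.73, 5.43 and 6.57 in WT, in both cases with the lowest sum in KO replicate 2, the shallowest library. Of the other members Il18r1 was nearest to Il1rl1 (0.455), with which it shares 3 regions, followed by Il18rap (0.737), Il1r2 (0.812), Il1r1 (0.942) and Il1rl2 (1.05).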

How the data were processed

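The files were 1 peak list per library. The submitters' processing notes name mm10 as the build, and Picard 1.88 and Bowtie2 2.3.1 among the tools. Per the file headers, the authors called peaks separately for each library and without a control, using MACS 2.1.1.20160309 with a q-value of 0.05, a tag shift of -100 bp, an extension to 200 bp, 1 tag kept per position and a background window of 10000 bp. Removal of mitochondrial tags is not stated per the labels or headers. The pileup as deposited is a signal: how many extended tags cover the summit, without depth scaling. The authors' −log10 p-value, −log10 q-value and fold enrichment (a ratio) set that height against local background. At a fixed q-value a deeper list reaches weaker sites, so absence from a list means no call at its depth, not closed chromatin.

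Genotypes came from the labels and replicate numbers from the titles. The 6 members, the pathway and marker lists, the motifs and the tests were chosen with earlier results of these data known. The text names the members, their neighbours, regions of the cluster in at least 3 lists, pathway genes with the most or fewest peaks, and the 3 genes most like Il1rl1; Myd88 and the named promoters were singled out after their values were seen. Peaks overlapping by at least 1 bp were merged into 64817 regions, of which 29419 were in all 6 lists. Scaled pileup is a region's highest pileup divided by the library's median over those 29419, since the median of a whole list falls as more weak peaks are called. Log2 scaled pileups were compared by limma 3.58.1 (R 4.3.3, with intensity trend) and adjusted by Benjamini-Hochberg over all 29419. For peak numbers the test was the exact permutation of all 20 assignments, two-sided. The fit was tested on simulated data with planted differences larger than any found at the cluster. That does not show how often differences of the size seen there would be called. Gene spans and promoter sequences came from RefSeq on GRCm38.p6. Python 3.11.15 and pandas 2.3.3 were used. Alternatives were lists of equal length, −log10 q of at least 5, flanks of 0 or 5 kb, peaks per 10000, other scalings, 200 bp windows, stronger regions only, no trend, each library left out, and a replicate block.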

Additional observations from a re-analysis of the deposited data

How the results depend on the processing

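Differences are KO minus WT. The cluster as a whole had fewer peaks in KO in each setting run, with differences in number of -12.7 to -1, the smallest in equal-length lists, and of -0.933 per 10000 peaks, and Il1r2 and Il1rl1 likewise. In equal-length lists the difference was 0 at Il18r1 and Il18rap, 0.667 at Il1r1 and 0.333 at Il1rl2, and no region was called in WT lists alone (0 against 3). Per 10000 peaks it was 0.0239 at Il1r1, 0.0848 at Il1rl2 and 0.0952 at Il18r1, and with the stricter threshold 0.333 at Il1rl2 and 0 at Il18r1. Leaving out 1 library moved Il1rl2 between -0.667 without KO replicate 2 and 0.333 without WT replicate 6, and the number of WT-only regions between 3 and 5 (5 without KO replicate 1, WT replicate 4 or WT replicate 6, which loosens the criterion).

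Limma called 0 of the cluster regions in every setting but the list-median scale, where it called 2, while calls over all regions ran from 0 without the intensity trend to 1222 without KO replicate 4. They numbered 712 as reported, 45 with a replicate block, 11 without WT replicate 4 and 10197 on the list-median scale, so the 2.42% of all regions depends on the setting. On that scale, which lowers all regions by 0.32, the log2 difference turned to -0.263 at the Il1r2 promoter, -0.108 at 22.2 kb in Il1r2, -0.240 and -0.023 at 13.8 and 62.3 kb in Il1r1, -0.220 at the Il1rl2 promoter, -0.175 at 5.1 kb before Il1rl1, -0.284 and -0.194 at 4.6 and 10.3 kb in Il18r1 and -0.145 at 14.2 kb in Il18rap. By fold enrichment it turned to -0.0745 and 0.318 at 13.8 and 48.7 kb in Il1r1, 0.0489 at the Il18r1 promoter and -0.0358 in Il18rap, and by cyclic loess to 0.0178 at 48.7 kb in Il1r1. Leaving out 1 library gave both signs at 5.6 kb (-0.355 to 0.188), 13.8 kb (-0.0394 to 0.191) and 48.7 kb in Il1r1 (-0.121 to 0.125), before and in Il1rl1 (-0.0382 to 0.361 and -0.328 to 0.0183), at the Il18r1 promoter (-0.244 to 0.144) and 4.6 kb into Il18r1 (-0.0745 to 0.162). None of these values passed the test, and the causes were not tested.

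The numbers 2 and 4 occur in both genotypes, but nothing in the labels pairs them, and deviations from the group means correlated by -0.0208 for number 2 and -0.0519 for number 4 across regions. With a replicate block on these 2 pairs the difference in peak number was -12.5 for the cluster (exact permutation p = 0.5, the smallest that 2 pairs allow), -5.5 for Il1rl1, -2.5 for Il1r2 and 0.5 for Il1rl2, and the log2 difference at 5.6 kb in Il1r1 was 0.116.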
